A study of Homo sapiens with 24 samples.

Results

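The 10 genes of the thioredoxin and peroxiredoxin system described here were followed in 22Rv1 cells, a long-established line from a human prostate tumour, after exposure to DMSO, KB02 or KB05. The 10 genes were taken by symbol from the 60232 gene rows of the table: TXN, TXNRD1, TXNRD2, TXNIP, SRXN1, PRDX1, PRDX2, PRDX3, PRDX5 and PRDX6. All 10 passed the filter on low counts that 18379 genes passed, so no member was left out of a test. KB02 and KB05, small molecules known here by code name, were given at 200 µM for 1 h, after which the cells stayed in fresh medium for 2 h. The control group received DMSO, the vehicle, and all 3 groups carry a 3 h time point in their titles but a 2 h tag in their descriptions and column names, with 3 libraries each from treatments described as biological triplicates of this 1 line. The labels name no genetic change in any group. The other 15 of the 24 samples in the series were taken at 8 h, with DMSO or other agents, and were not analysed here. Total counts per library ran from 15507130 to 21900671, and a member's own count ran from 421 (SRXN1 in DMSO replicate 3) to 24317 (PRDX2 in KB02 replicate 2).

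Thioredoxin is a small protein with a pair of reactive cysteines that reduces disulfides in other proteins. Thioredoxin reductases, which are selenoproteins, return it to its reduced form with electrons from NADPH, and TXNIP binds reduced thioredoxin and blocks it. Peroxiredoxins destroy hydrogen peroxide with a reactive cysteine, most of them are recharged by thioredoxin, and sulfiredoxin (SRXN1) rescues peroxiredoxins whose cysteine has been over-oxidised. Several of these genes, TXN, TXNRD1, SRXN1 and PRDX1 among them, are textbook targets of NRF2, a factor that binds antioxidant response elements, and TXNIP is a textbook target of MondoA (MLXIP) with its partner MLX, which bind paired E-box-like half-sites in glucose-responsive promoters.

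The sequences just upstream of 3 genes are shown because the difference between the compounds was largest for TXNIP among the members, because its relative ARRDC4 moved in the same direction as TXNIP under each compound, and because the reductase gene TXNRD1 alone among the members held an antioxidant response element core. They come from RefSeq on GRCh38.p14, run 5′ to 3′ on the gene's strand, leave out bases that GENCODE release 29 places in an exon, and carry the motif in capitals. Capitals mark a pair of CACGNG half-sites with 5 bases between them in TXNIP, the E-box CACGTG in ARRDC4 and the core TGACNNNGC in TXNRD1.
TXNIP, chr1:145996601-145996829, minus strand: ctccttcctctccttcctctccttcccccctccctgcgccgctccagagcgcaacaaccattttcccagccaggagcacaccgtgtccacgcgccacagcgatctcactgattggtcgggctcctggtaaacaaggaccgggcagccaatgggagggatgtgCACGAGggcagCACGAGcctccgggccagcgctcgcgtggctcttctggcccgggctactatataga
ARRDC4, chr15:97960453-97960697, plus strand: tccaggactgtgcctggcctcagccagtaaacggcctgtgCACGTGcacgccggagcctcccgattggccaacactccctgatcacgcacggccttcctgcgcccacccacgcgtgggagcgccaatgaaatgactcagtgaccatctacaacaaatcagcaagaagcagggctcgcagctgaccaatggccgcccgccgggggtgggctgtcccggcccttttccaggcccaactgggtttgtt
TXNRD1, chr12:104215529-104215778, plus strand: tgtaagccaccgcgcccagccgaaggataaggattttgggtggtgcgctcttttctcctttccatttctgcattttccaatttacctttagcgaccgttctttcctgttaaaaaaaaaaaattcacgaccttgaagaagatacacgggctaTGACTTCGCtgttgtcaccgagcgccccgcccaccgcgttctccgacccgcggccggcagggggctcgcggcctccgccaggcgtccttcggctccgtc
In the 250 bases upstream of the gene start, searched on both strands, TGACNNNGC occurred in 11.0% of 27305 promoters, CACGTG in 6.49% and the paired half-sites in 0.0586%, which were 16 promoters. Of the 8 members with a promoter entry (PRDX1 and PRDX6 had none), TXNRD1 alone held TGACNNNGC, PRDX3 alone held CACGTG and TXNIP alone held the paired half-sites, 88 bases before its first start. TXNRD1 had 2 starts with 1 core each, at 99 bases before the first, which is shown, and 102 bases before the second, on the minus strand. The window of that second start lay within annotated exons and is not shown. A CACGTG can itself be part of a pair of half-sites, but none of the promoters searched for ARRDC4 or PRDX3 held the pair as written. These matches describe letters in a window, and the paired motif was added to the search after the sequences had been read. It was searched only with both half-sites in the same orientation, as in TXNIP, so its share leaves out pairs in opposite orientation.

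PRDX2 had the highest level of the 10 per length of annotated exon, and SRXN1 the lowest. Levels are given as CPM, counts per library after TMM scaling of library sizes, and only in this paragraph and its plot also per kilobase of annotated exon, so that genes can be compared. In DMSO the per-kilobase level was 454 for PRDX2, 225 for PRDX1, 202 for TXN, 181 for PRDX5, 78.9 for PRDX6, 51.9 for TXNIP, 43.8 for PRDX3, 22.0 for TXNRD2, 19.9 for TXNRD1 and 10.5 for SRXN1. Neighbours in that order whose 3 DMSO libraries overlapped were PRDX1 and TXN, TXN and PRDX5, and TXNRD2 and TXNRD1. Treatment changed the order at 2 places. Every library of PRDX5 lay above every library of TXN in KB02 (lowest 147.7 against highest 125.8 per kilobase) and in KB05 (lowest 197.9 against highest 182.1). In KB05 every library of TXNIP (highest 33.65) lay below every library of PRDX3 (lowest 44.63). The plot of per-length levels shows these ranks on a log axis. Exon length counts all annotated exons of a gene, so the level of a gene with long exons that are seldom used is understated.

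**Figure D1:**
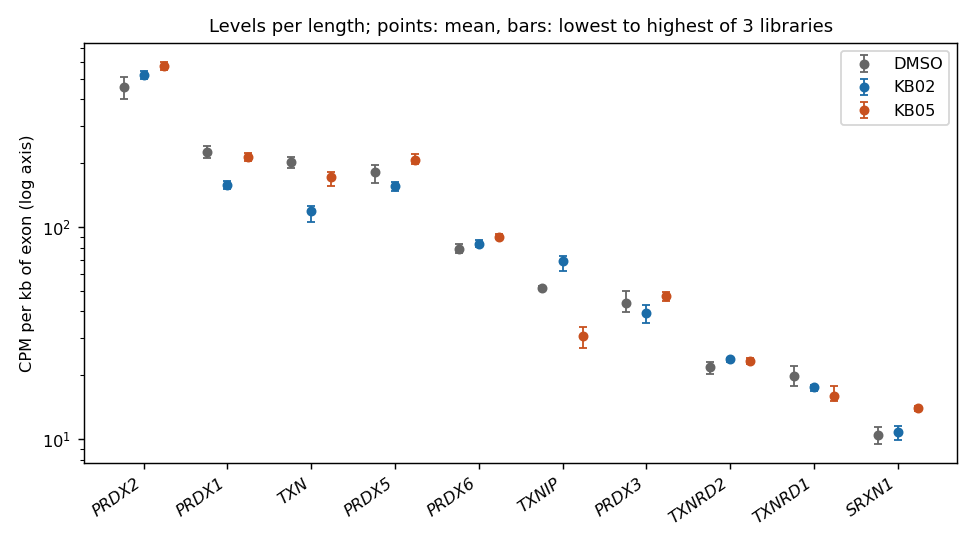
Level (CPM per kilobase of annotated exon, log axis) of the 10 genes, with points at the mean and bars from the lowest to the highest of 3 libraries in DMSO, KB02 and KB05. PRDX2 lies highest in every library and SRXN1 lowest, while TXN drops below PRDX5 in KB02 and KB05 and TXNIP drops below PRDX3 in KB05.

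Against DMSO, KB02 raised 2 of the 10 genes, TXNIP and PRDX2, and lowered 3, TXN, PRDX1 and PRDX5. Of all 18379 genes tested, 22.8% were called higher and 23.3% lower in that comparison, so the number of members called is near that of genes at large. KB05 raised 4, SRXN1, PRDX2, PRDX5 and PRDX6, where 18.7% of all genes were called higher, and lowered 3, TXN, TXNRD1 and TXNIP, where 21.1% were called lower. Between the compounds, KB05 stood above KB02 for 5 members, TXN, SRXN1, PRDX1, PRDX3 and PRDX5, with 21.8% of all genes called higher, and below it for 1, TXNIP, with 18.2% called lower. The median log2 fold change over the 10 was -0.06 for KB02, 0.10 for KB05 and 0.20 for KB05 against KB02, beside medians over all genes of 0, 0 and 0.06. A call is an adjusted p under 0.05 in edgeR's quasi-likelihood test with Benjamini-Hochberg adjustment over all genes, and every adjusted p here is from that test. Both compounds were compared with the same DMSO libraries, so their values are given side by side and no likeness is drawn from them. In cells measured in bulk, fewer copies per cell and fewer cells that carry a transcript cannot be told apart.

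**Figure D2:**
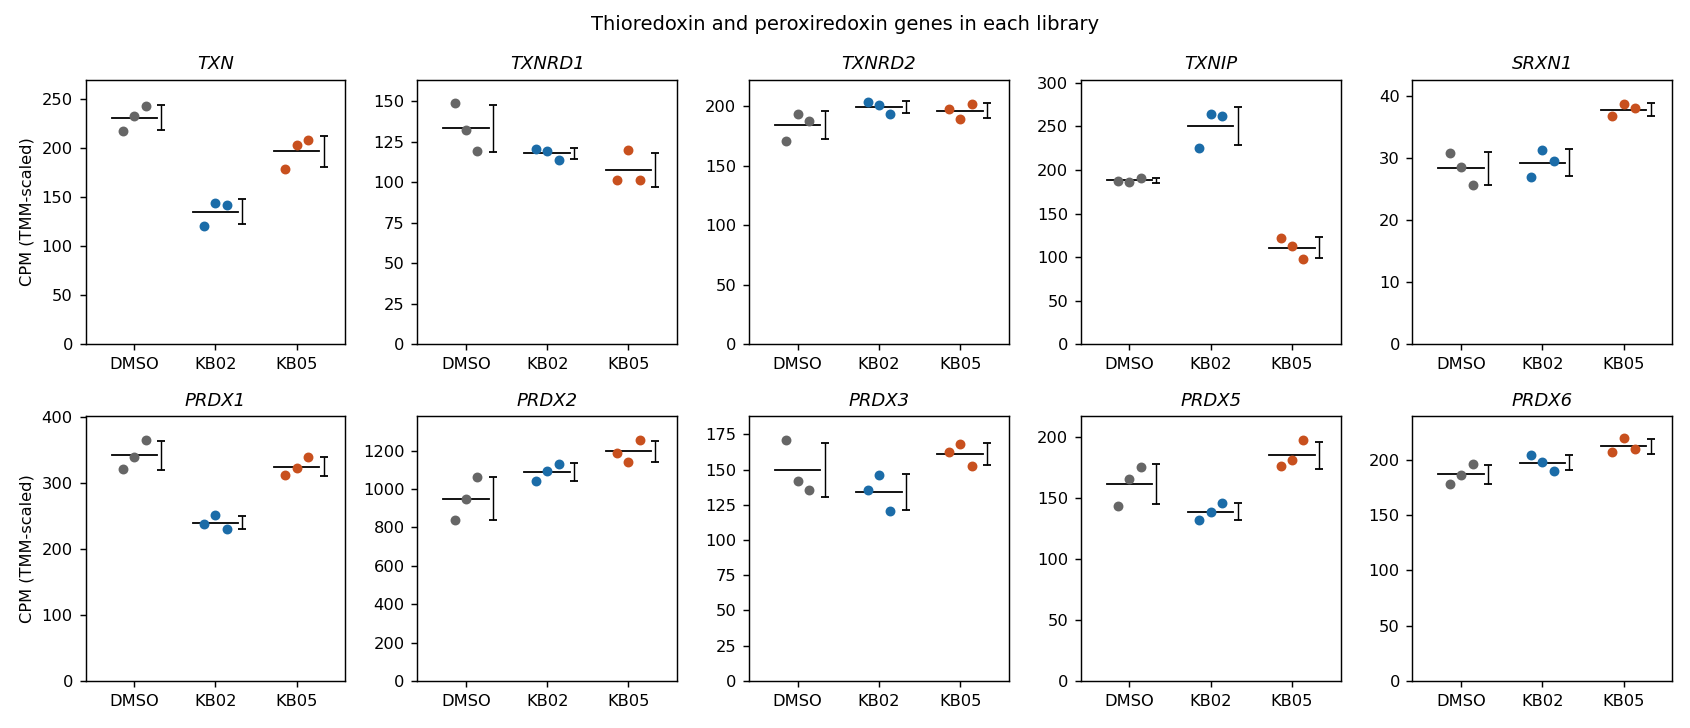
Normalised level (CPM) of each of the 10 genes in every library, with 1 panel per gene, axes from 0, 3 points per group, a line at the group mean and a bracket of 1 SD to either side. TXNIP separates all 3 groups, with KB02 highest and KB05 lowest, and TXN and PRDX1 are lowest in KB02.

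TXN (chromosome 9, 110243811 to 110256640, minus strand, GRCh38, as for all positions here) encodes cytosolic thioredoxin, the protein at the centre of the system. It stood at 217, 232 and 243 CPM in the DMSO libraries, at 120.4, 144 and 142 in KB02 and at 178, 203 and 208 in KB05. No KB02 library reached the range of another group, and all 3 KB05 libraries lay below the lowest DMSO library. TXN fell by 0.77 ± 0.08 on the log2 scale (SE) with KB02, a 1.71-fold drop with an adjusted p of 7.2e-10. With KB05 it fell by 0.23 ± 0.08 (adjusted p 0.0159), and its level in KB05 exceeded that in KB02 by 0.54 ± 0.08 (adjusted p 1.04e-06). The KB05 call against DMSO was lost without DMSO replicate 2 (adjusted p 0.0522), DMSO replicate 3 (0.0671) or KB05 replicate 1 (0.125).

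TXNRD1 (chromosome 12, 104215779 to 104350305, plus strand) encodes the cytosolic reductase that recharges thioredoxin. Its levels were 149, 132 and 119 CPM in DMSO, 120.25, 119 and 114 in KB02, and 102, 119.6 and 101 in KB05. The highest value of each treated group lay just above the lowest DMSO library, so the groups overlapped by that 1 library. KB05 lowered TXNRD1 by a log2 difference of -0.31 ± 0.08 (adjusted p 0.00212), a 1.24-fold drop. With KB02 the difference was -0.18 (95% interval -0.34 to -0.02, adjusted p 0.0624), which did not pass, and it passed without DMSO replicate 3 (adjusted p 0.0105) or with no filter on low counts (0.0331). KB05 and KB02 differed by -0.13 (interval -0.29 to 0.03, adjusted p 0.193), and this passed when only those 2 groups were fitted (0.0466) or with library size as the only scaling (0.0302).

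TXNRD2 (chromosome 22, 19875517 to 19941992, minus strand) encodes the mitochondrial reductase. It was measured at 171, 193 and 188 CPM in DMSO, 203, 201 and 194 in KB02, and 197, 189 and 202 in KB05. The KB05 libraries overlapped both other groups, and the lowest KB02 library lay just above the highest DMSO library. No comparison passed the test: the log2 difference was 0.12 for KB02 (interval -0.02 to 0.25, adjusted p 0.172), 0.09 for KB05 (-0.05 to 0.23, 0.297) and -0.02 between the compounds (-0.16 to 0.12, 0.825). The KB02 difference passed without DMSO replicate 2 (adjusted p 0.0449) and with library size as the only scaling (0.00226).

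TXNIP (chromosome 1, 145992435 to 145996600, minus strand), which binds and blocks thioredoxin and also limits glucose uptake, moved in opposite directions under the compounds and differed most between them of the 10. Its DMSO libraries held 188, 186 and 191 CPM. The KB02 libraries held 225, 264 and 262, and the KB05 libraries 122, 113 and 97.8. The 3 groups did not overlap, with every KB02 library above and every KB05 library below the narrow DMSO range. TXNIP rose by 0.41 ± 0.08 with KB02 (log2, 1.33-fold, adjusted p 4.24e-05) and fell by 0.76 ± 0.08 with KB05 (1.70-fold, adjusted p 4.43e-09). KB05 against KB02 gave -1.18 ± 0.08, a 2.26-fold lower level (adjusted p 4.04e-13), and TXNIP was the only member whose change passed 2-fold in any comparison. All 3 calls were kept under each of the 16 alternative settings, with log2 values from 0.38 to 0.55 for KB02, -0.84 to -0.68 for KB05 and -1.30 to -1.09 between the compounds.

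SRXN1 (chromosome 20, 646615 to 653370, minus strand), the repair enzyme for over-oxidised peroxiredoxins, was higher in KB05 than in either other group. It stood at 30.7, 28.6 and 25.6 CPM in DMSO, 26.9, 31.3 and 29.5 in KB02, and 36.7, 38.7 and 38.0 in KB05. Every KB05 library exceeded every other library, and the DMSO and KB02 libraries were interleaved. The rise with KB05 was 0.42 ± 0.09 against DMSO (log2, 1.33-fold, adjusted p 0.000319) and 0.37 ± 0.09 against KB02 (adjusted p 0.000875), while KB02 against DMSO gave 0.04 (interval -0.14 to 0.22, adjusted p 0.728). The annotation places a second gene model, AL121758.1, over 2292 exon bases of SRXN1 on the same strand, and it held 0 counts.

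PRDX1 (chromosome 1, 45511036 to 45523047, minus strand), an abundant cytosolic peroxiredoxin, was lower in KB02 than in either other group. It was at 322, 339.8 and 365 CPM in DMSO, at 239, 251 and 231 in KB02, and at 313, 323 and 340.3 in KB05. The KB02 libraries lay below all 6 others, and the KB05 and DMSO libraries overlapped. PRDX1 fell by 0.51 ± 0.07 with KB02 (log2, 1.42-fold, adjusted p 2.56e-07) and was 0.44 ± 0.07 higher in KB05 than in KB02 (adjusted p 5.26e-06). For KB05 against DMSO the difference was -0.07 (interval -0.21 to 0.07, adjusted p 0.424). PRDX1 shares 379 exon bases with MMACHC on the opposite strand, which held 2656 counts against 50843 for PRDX1. The sources used here do not say whether the libraries kept strand, so reads from a stretch shared by opposite genes may have been credited to either.

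PRDX2 (chromosome 19, 12796820 to 12801859, minus strand), the other abundant cytosolic peroxiredoxin, was raised by both compounds. It held 841, 947 and 1063 CPM in DMSO, 1042, 1095 and 1132 in KB02, and 1189, 1143 and 1256 in KB05. All KB05 libraries lay above all DMSO libraries, whereas the lowest KB02 library lay under the highest DMSO library. PRDX2 rose by 0.20 ± 0.08 with KB02 (log2, adjusted p 0.034) and by 0.33 ± 0.08 with KB05 (adjusted p 0.00078), and the compounds differed by 0.13 (interval -0.02 to 0.29, adjusted p 0.167). The KB02 call was lost without DMSO replicate 1 (adjusted p 0.205), KB02 replicate 3 (0.118) or KB05 replicate 2 (0.0502), and when only the 2 groups were fitted (0.05). An antisense gene over 296 of its exon bases, AC018761.2, held 435 counts against 182883 for PRDX2.

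PRDX3 (chromosome 10, 119167703 to 119178833, minus strand) is the peroxiredoxin of the mitochondrial matrix. Its levels were 171, 142 and 136 CPM in DMSO, 136, 146 and 120.4 in KB02, and 163, 168 and 153 in KB05. The KB05 libraries lay above all KB02 libraries, and the DMSO libraries overlapped both groups. PRDX3 was 0.27 ± 0.08 higher in KB05 than in KB02 (log2, adjusted p 0.013), a call lost without DMSO replicate 2 (0.0515), KB02 replicate 1 (0.0834), KB02 replicate 3 (0.0888) or KB05 replicate 2 (0.0614), and with library size as the only scaling (0.247). Against DMSO the differences were -0.16 for KB02 (interval -0.33 to 0.01, adjusted p 0.129) and 0.11 for KB05 (-0.07 to 0.28, 0.334). The first passed without DMSO replicate 3 (adjusted p 0.0357) and the second without DMSO replicate 1 (0.0294).

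PRDX5 (chromosome 11, 64318088 to 64321811, plus strand), found in mitochondria, peroxisomes and cytosol, went down with KB02 and up with KB05. It was at 143, 165 and 176 CPM in DMSO, 132, 139 and 146 in KB02, and 177, 181 and 198 in KB05. KB05 libraries lay above all others, while the highest KB02 library lay above the lowest DMSO library. The clearest difference was between the compounds, 0.42 ± 0.08 higher in KB05 (log2, 1.34-fold, adjusted p 3.62e-05). PRDX5 fell by 0.22 ± 0.08 with KB02 (adjusted p 0.0169) and rose by 0.20 ± 0.08 with KB05 (adjusted p 0.0349). The KB02 call was lost without DMSO replicate 2 (0.169), DMSO replicate 3 (0.11), KB02 replicate 1 (0.212) or KB02 replicate 2 (0.119), and under upper-quartile scaling (0.0847) or library size alone (0.343). The KB05 call was lost without DMSO replicate 1 (0.209), DMSO replicate 2 (0.0607), KB05 replicate 2 (0.0594) or KB05 replicate 3 (0.198), and with DESeq2 (0.0711) or its size factors in edgeR (0.0539).

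PRDX6 (chromosome 1, 173477266 to 173488807, plus strand), the peroxiredoxin with a single active cysteine that relies on glutathione rather than thioredoxin, rose slightly with KB05. It stood at 178, 186 and 196 CPM in DMSO, 204, 198 and 190.4 in KB02, and 207, 219.6 and 209.7 in KB05. All KB05 libraries lay above all others, and the KB02 and DMSO libraries overlapped. The KB05 rise was 0.18 ± 0.07 (log2, 1.14-fold, adjusted p 0.0285), lost without DMSO replicate 1 (0.0837), DMSO replicate 2 (0.082), KB05 replicate 2 (0.126) or KB05 replicate 3 (0.0616), and with no filter on low counts (0.0536). KB02 against DMSO gave 0.08 (interval -0.06 to 0.22, adjusted p 0.345), which passed with library size as the only scaling (0.00707), and the compounds differed by 0.10 (-0.03 to 0.24, 0.232).

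Added together, the 5 peroxiredoxin members held 1656, 1781 and 1935 CPM in DMSO, 1753, 1829 and 1819 in KB02, and 2048, 2035 and 2156 in KB05. The KB05 sums lay above all others, PRDX2 made up most of each sum, and no test was made on it. Within KB02 the cytosolic pair parted, PRDX1 lower and PRDX2 higher than in DMSO, as the plot of changes shows. The PRDX2 call for KB02 was kept in 12 of the 16 alternative settings, and its KB02 and DMSO libraries overlapped.

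**Figure D3:**
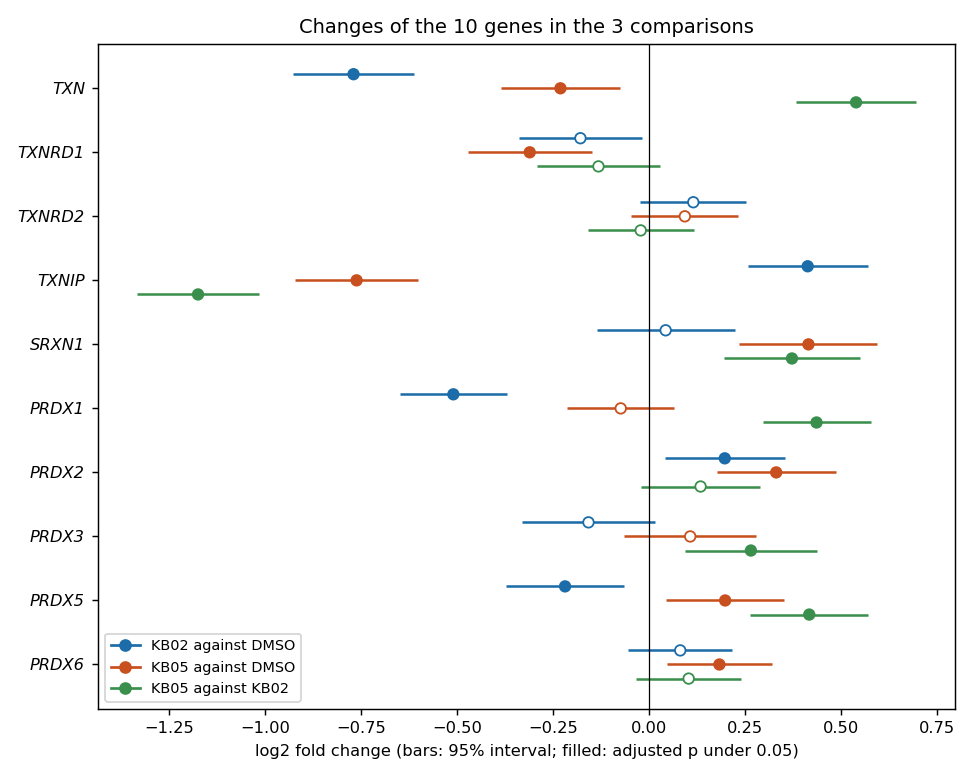
Log2 fold change of the 10 genes for KB02 against DMSO, KB05 against DMSO and KB05 against KB02, with 95% intervals and filled points for adjusted p under 0.05. TXNIP lies at 0.41, -0.76 and -1.18, and TXN at -0.77, -0.23 and 0.54.

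TXNIP belongs to the alpha-arrestin family, whose other members guide membrane proteins to ubiquitin ligases, and ARRDC4 is the relative that shares its response to glucose. ARRDC4 stood at 17.0, 16.8 and 16.7 CPM in DMSO, 33.1, 37.5 and 37.9 in KB02, and 11.4, 12.0 and 11.2 in KB05. As for TXNIP, the 3 groups did not overlap and KB02 was highest and KB05 lowest. ARRDC4 rose by 1.10 ± 0.09 with KB02 (log2, adjusted p 1.95e-11) and fell by 0.55 ± 0.10 with KB05 (adjusted p 5.64e-05), so KB05 lay 1.65 ± 0.10 below KB02 in log2 terms (3.14-fold, adjusted p 1.8e-14). ARRDC3, which acts on adrenergic receptors, rose with both compounds, from 16.4, 13.7 and 21.6 CPM to 92.2, 95.3 and 90.2 with KB02 and to 239, 251 and 246 with KB05. Its log2 rise was 2.43 ± 0.11 with KB02 and 3.84 ± 0.11 with KB05 (adjusted p 1.06e-12 and 5.17e-15). ARRDC2 rose by 0.32 and 0.35 (adjusted p 0.00146 and 0.000831), and ARRDC1 by 0.40 with KB05 alone among its tests against DMSO (3.21e-05), with 0.14 for KB02 (0.107). ARRDC5 held 1 count over the 9 libraries and was not tested. MLXIP, which encodes MondoA, rose by 0.37 with KB02 (adjusted p 7.57e-05) and had 0.12 with KB05 (0.206). MLX fell by 0.25 on the log2 scale with KB02 (0.00909), a call lost without KB02 replicate 1 or 2 and with library size alone, and had 0.01 with KB05 (0.953). ARRDC1, ARRDC2, MLXIP and MLX were named after their values were seen, and the part of MondoA in these changes was not tested.

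**Figure D4:**
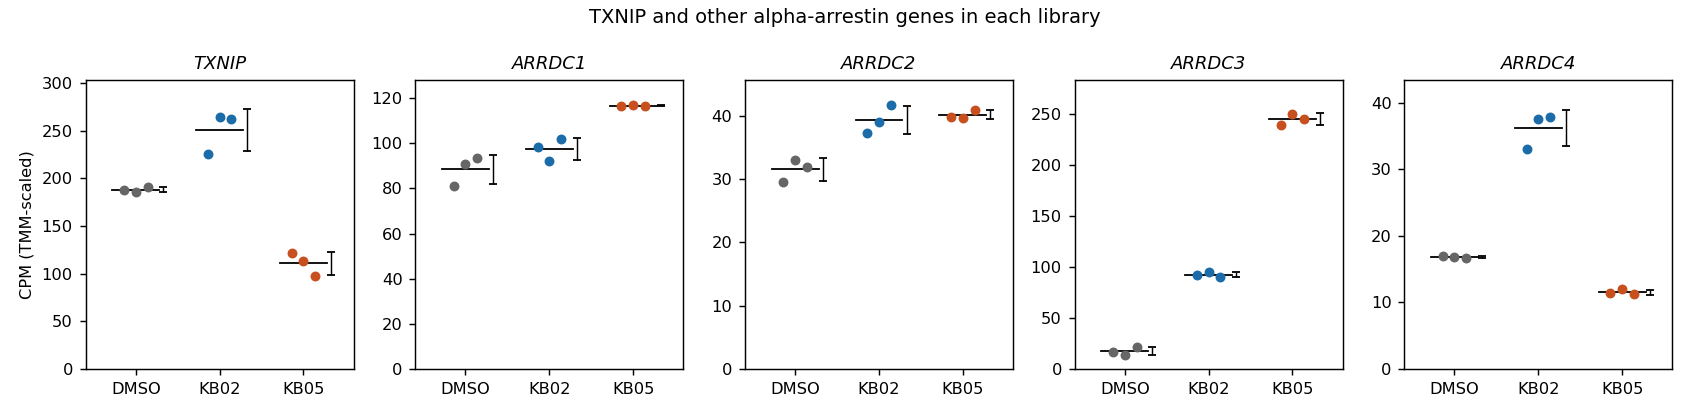
Normalised level (CPM, axes from 0) of TXNIP and 4 alpha-arrestin relatives in every library, with a line at each group mean and a bracket of 1 SD to either side. TXNIP and ARRDC4 are highest in KB02 and lowest in KB05, whereas ARRDC3 climbs from 13.7 to 21.6 CPM in DMSO to 239 to 251 CPM in KB05.

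The patterns most like that of TXNIP over the 9 libraries, among 13086 genes with a symbol and enough signal, were those of RAPGEF6, PPFIA1 and UBR4. The root mean square difference between centred log2 CPM values was 0.114 for RAPGEF6, 0.117 for PPFIA1 and 0.121 for UBR4, and Pearson's r over the libraries was 0.98, 0.973 and 0.982. Their log2 changes were 0.46 and -0.59 for RAPGEF6, 0.39 and -0.74 for PPFIA1, and 0.57 and -0.81 for UBR4, with KB02 first and KB05 second, beside 0.41 and -0.76 for TXNIP. This is a ranking over the same libraries, which share treatment and depth, and it carries no p.

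The wider network was taken as 10 lists with 64 further genes, of which 62 were tested. SOD2 was not analysed here. In KB02 20 of the 62 were higher and 19 lower, with a median log2 fold change of 0, in KB05 13 were higher and 15 lower (median 0.06), and KB05 stood above KB02 for 23 and below it for 10 (median 0.12). The background shares given for the members hold for these counts and for those of each list below. They were 22.8% higher and 23.3% lower for KB02, and 18.7% higher and 21.1% lower for KB05. The counts of single lists are small and are given as description only. The plot of the network shows every tested gene of each list.

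Among the thioredoxin-fold partners, 6 of 11 fell and 3 rose with KB02, and 5 fell and 2 rose with KB05. PRDX4, the peroxiredoxin of the endoplasmic reticulum and the only member of its family outside the 10, stood at 247, 258 and 278 CPM in DMSO, 111, 118 and 108 in KB02, and 183, 189 and 183 in KB05. The groups did not overlap, and its log2 change was -1.22 ± 0.07 with KB02 (2.33-fold lower, adjusted p 2.78e-15) and -0.50 ± 0.07 with KB05 (6.09e-07). TXNDC5, a disulfide isomerase of the endoplasmic reticulum, fell by 1.31 with KB02 and 0.84 with KB05 on the log2 scale (adjusted p 1.4e-14 and 6.12e-10). The mitochondrial thioredoxin TXN2, chosen after its values were seen, rose by 0.19 and 0.24 (0.0237 and 0.00677), where cytosolic TXN fell with each compound. The TXN call for KB05 was lost in the settings given above for that gene. The 3 partners that rose with KB02 became 2 without DMSO replicate 1 or with no filter on low counts.

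Of the sestrins, stress-induced proteins once described as helpers in peroxiredoxin repair, 2 of 3 rose with KB02 and 1 with KB05. SESN2 stood at 32.5, 31.6 and 32.0 CPM in DMSO, 171, 156 and 161 in KB02, and 113, 111 and 95.8 in KB05. Its log2 rise was 2.35 ± 0.08 with KB02 (5.08-fold, adjusted p 5.62e-21) and 1.73 ± 0.08 with KB05 (3.32-fold, 1.42e-17), beside 0.04 and 0.42 for the repair enzyme SRXN1. SESN3 rose by 0.52 with KB02 (adjusted p 0.00267) and had 0.05 with KB05 (0.826). Of the 4 methionine sulfoxide reductases, which use thioredoxin to mend oxidised methionine, MSRB1 was the 1 called with each compound, at 0.25 (0.012) and 0.31 (0.00279).

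Among the other enzymes that remove peroxide or superoxide, 3 of 8 tested fell with KB02 and 1 of 8 fell with KB05. GPX8 and GPX7, glutathione peroxidase relatives of the endoplasmic reticulum, fell by 1.56 and 1.03 on the log2 scale with KB02 (adjusted p 5.22e-12 and 6.29e-06). With KB05 GPX8 fell by 0.33 (0.0237), a call lost without DMSO replicate 2 (0.0501), DMSO replicate 3 (0.0643), KB05 replicate 1 (0.0753) or KB05 replicate 3 (0.0663), and GPX7 had -0.33 (0.109). Of the glutaredoxins and glutathione reductase, 2 of 5 rose and 1 fell with KB02, and 1 rose with KB05, and the 1 that fell became 2 without DMSO replicate 3. GLRX fell by 0.56 on the log2 scale with KB02 (0.00163) and had -0.01 with KB05 (0.959), and GLRX3 rose by 0.30 (0.00105) and 0.42 (2.16e-05).

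Of 8 listed enzymes that make NADPH, which feeds the reductases, or belong to the pentose phosphate pathway, 4 fell with KB02 and 3 with KB05. The weakest of the 3 KB05 calls was PGD (log2 -0.17, adjusted p 0.049), named after its values were seen. NNT, the mitochondrial transhydrogenase, fell by 1.05 and 0.89 on the log2 scale (adjusted p 2.77e-08 and 1.06e-06), and TKT, of the branch of the pentose phosphate pathway that makes no NADPH itself, fell by 0.84 and 0.32 (2.84e-11 and 0.000729). Among 6 clients of thioredoxin, 3 fell and 2 rose with KB02, and 2 fell with KB05. The 2 that rose became 0 without DMSO replicate 3, and 1 without DMSO replicate 2 or KB02 replicate 2, with DESeq2 or with no filter on low counts. The ribonucleotide reductase subunits RRM2 and RRM1, which draw electrons from thioredoxin, were among those that fell, by 0.77 and 0.53 on the log2 scale with KB02 (5.34e-11 and 4.28e-07) and by 0.52 and 0.28 with KB05 (2.66e-07 and 0.0025). Of 7 genes listed under selenoprotein synthesis, a process needed to make both reductases, 3 rose and 1 fell with KB02, and 3 rose and 2 fell with KB05. The fall count for KB02 became 2 without DMSO replicate 3 or KB02 replicate 1. That for KB05 became 1 without DMSO replicate 1 or 2, KB02 replicate 2 or any 1 KB05 library, and with DESeq2, upper-quartile scaling or library size alone. SEPSECS fell by 0.87 and 0.92 on the log2 scale (2.32e-06 and 2.38e-06), and SEPHS2 rose by 0.51 and 0.71 (5.74e-07 and 2.63e-09).

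NFE2L2, which encodes NRF2, rose by 0.29 with KB02 (log2, adjusted p 0.0146) and fell by 0.27 with KB05 (0.0316), and was named after its values were seen. The KB05 fall was lost without DMSO replicate 1 or 2 or KB05 replicate 1 or 3, and with upper-quartile scaling or library size alone. KEAP1, the adaptor that sends NRF2 to degradation, rose by 0.78 and 0.41 (6.76e-11 and 2.48e-05). BACH1, a repressor that competes for the same response elements, rose by 1.23 and 0.80 (3.27e-08 and 0.000104). All 3 of that list were called higher with KB02 (2 without DMSO replicate 3 or KB02 replicate 3), and with KB05 2 were higher and 1 lower. Of the 4 members given above as NRF2 targets, TXN and PRDX1 fell with KB02, TXN and TXNRD1 fell with KB05, and SRXN1 rose with KB05. NRF2 protein was not measured here, and its part in these changes was not tested.

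**Figure D5:**
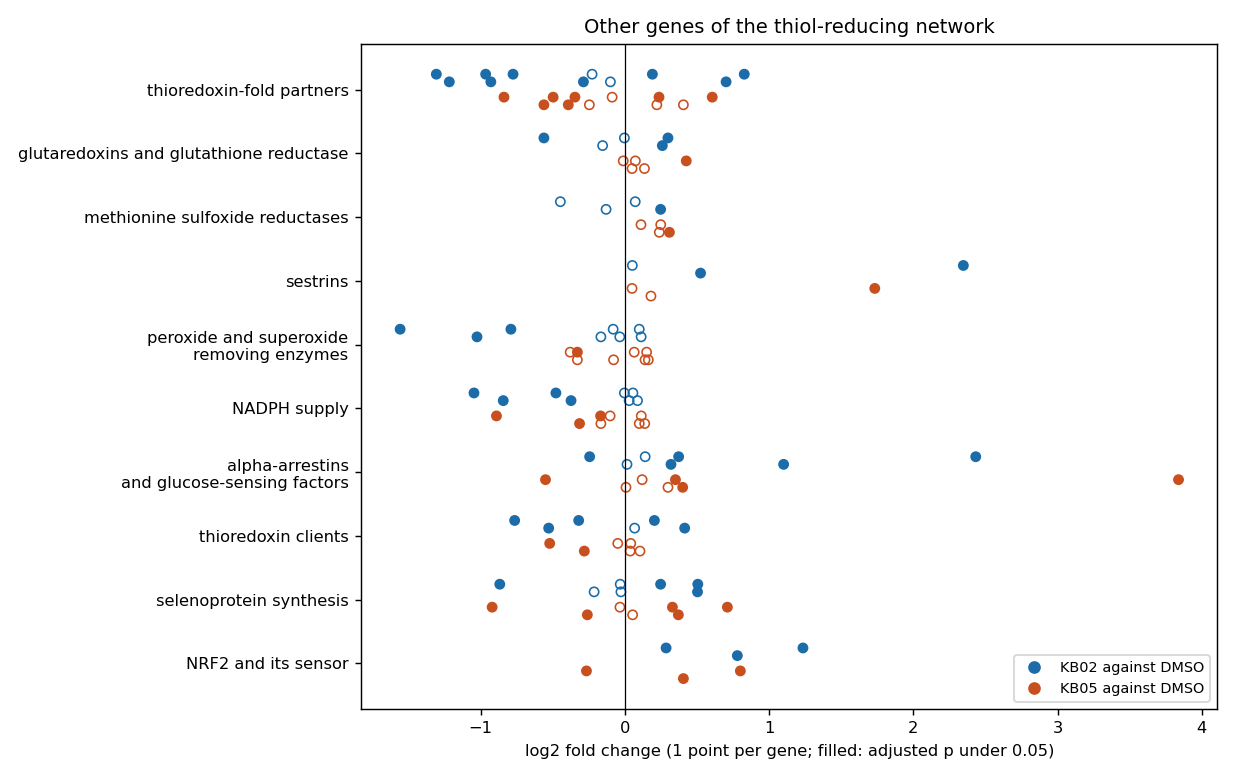
Log2 fold change against DMSO for KB02 and KB05 of the 62 tested genes of the 10 lists, 1 point per gene, filled for adjusted p under 0.05, with points staggered in height for legibility. ARRDC3 and SESN2 lie furthest to the right, and GPX8, TXNDC5 and PRDX4 furthest to the left with KB02.

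All 10 markers of prostate luminal epithelium were above 1 CPM, and their sum lay between 2700 and 3060 CPM in DMSO, 2460 and 2620 in KB02, and 3170 and 3230 in KB05. The 5 leukocyte markers summed to 17.5 to 24.4 CPM in DMSO, 12.3 to 17.2 in KB02 and 18 to 18.3 in KB05, and the 5 fibroblast markers to 17.1 to 20.8, 24 to 31 and 23.9 to 26.4. Endothelial and basal markers summed to at most 0.729 CPM in a library, with CDH5 and KDR of endothelium at 0. The 3 neuroendocrine markers summed to 233 to 268 CPM in DMSO, 121 to 131 in KB02 and 194 to 219 in KB05, so they too were lowest in KB02. Their part in the member results was not tested.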

How the data were processed

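RNA-seq libraries of 9 samples were analysed, 3 per group, grouped by the treatment given in the labels. The authors deposited estimated counts per gene, not scaled to depth. Salmon 1.3.0, DESeq2 1.30.1, hg38 and GRCh38.p13 are named per the submitters' processing notes. The sources used here do not give the annotation release or how transcripts were summed to genes. Salmon splits reads among similar transcripts by estimate, so overlapping genes, some of them not reported here, are uncertain; rows of annotated pseudogenes held at most 0.143% of a member's counts. Non-whole values made up 20.3% to 24.3% of each library, and all were rounded.

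The test was run with edgeR 4.0.16 in R 4.3.3: filterByExpr with a minimum count of 10 (18379 genes), TMM factors, and a robust quasi-likelihood fit of all 9 libraries with 3 groups and no block. The 3 comparisons are contrasts of this fit; p-values were adjusted by Benjamini-Hochberg over the 18379 genes and called under 0.05. The SE is the log2 fold change divided by the square root of F. Levels are TMM-scaled CPM. The steps were tested on simulated data. Chi-square per degree of freedom between replicates was 4.28 to 9.75, so every library counted once. Counts limit precision by counting error and replicate spread. Each p-value sets a difference against the spread within groups, pooled over the 9 libraries and drawn towards that of other genes. That spread is one between replicates of this line only.

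Members and lists were chosen with earlier results of these data known. Named are all members, the 2 called genes of each list with the largest change against DMSO (mean log2 CPM 1 or more) and, for a member past 2-fold, the 3 genes with the nearest pattern. Alternatives were DESeq2 1.42.0, other scalings, no filter, a fit of 2 groups, a replicate block, and leaving out each library. Positions and exon lengths come from GENCODE 29 (GRCh38), promoters from RefSeq (GRCh38.p14).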

Additional observations from a re-analysis of the deposited data

How the results depend on the processing

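Of the 18 member calls, 12 were kept under all 16 alternative settings: TXN for KB02 and between the compounds, TXNRD1 for KB05, TXNIP in all 3 comparisons, SRXN1 for KB05 and between the compounds, PRDX1 for KB02 and between the compounds, PRDX2 for KB05, and PRDX5 between the compounds. The other 6, and the values at which they were lost, stand beside each gene, and the cause was not tested. Scaled by library size alone, the median over all genes was 0.13 for KB02 against DMSO, and the higher share of calls went from 49.5% to 63.8%; between the compounds that share went from 54.4% to 37.4%. Members higher with KB02 then numbered 4, and 1 when only the 2 groups were fitted, and 1 to 3 when a library was left out. Members higher with KB05 numbered 2 to 4 when a library was left out. Members lower in KB05 than in KB02 numbered 2 with library size alone and 2 with only the 2 groups. List genes higher in KB05 than in KB02 numbered 13 with library size alone and 15 to 23 when a library was left out, and those lower 6 to 11.

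None of the values that changed sign was called. For KB05 against DMSO, GLRX turned to 0.02 with upper-quartile scaling, 0.01 with library size alone and -0.10 to 0.04 when a library was left out, and SESN3 ranged from -0.04 to 0.18. Leaving out a library gave SRXN1 -0.03 to 0.15 for KB02 and TXNRD2 -0.07 to 0.01 between the compounds. With library size alone, PRDX6 gave -0.01 and MSRB1 -0.05 between the compounds. Deviations of same-numbered libraries correlated at -0.041 to 0.081 (9 pairs), and those of libraries with other numbers at -0.066 to 0.039 (18 pairs). For 7 of the 9 libraries the best match in another group carried the same number. No correlation passed 0.1, so the main fit used no block, but whether the numbers pair samples was not settled. The replicate block left the members higher with KB02 at 2 and raised those lower from 3 to 4, by TXNRD1 (-0.18, adjusted p 0.0409). SRXN1 had the fewest counts, 421 to 705 per library, so small changes in it are the least resolved.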

Other observations

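DMSO replicate 1 was the lowest of its group for TXN, TXNRD2, PRDX1, PRDX2, PRDX5 and PRDX6, and the highest for TXNRD1, PRDX3 and SRXN1. TXNIP, at 186 to 191 CPM over the 3 DMSO libraries, had the narrowest range of the group for its level. MMACHC, which overlaps PRDX1 on the opposite strand and takes part in vitamin B12 handling, rose by 0.64 with KB05 (log2, edgeR adjusted p 1.53e-05) and had 0.26 with KB02 (0.0519), where PRDX1 had -0.07 and -0.51.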
